A study of Mus musculus with 6 samples.

Results

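Classical cadherins and their catenins were followed through early reprogramming, in which introduced transcription factors turn a body cell into one that resembles an embryonic stem cell, with the question whether the cells show a cadherin switch. The 9 genes were Cdh1, Cdh2, Cdh3, Cdh6, Cdh11, Cdh13, Ctnna1, Ctnnb1 and Ctnnd1. Every probe set that the platform annotation assigned to exactly 1 of them was included, which gave 23 probe sets for these 9 genes, out of 18193 genes on the array. Mouse embryonic fibroblasts of the strain B6CBAF1/J received SOX2 and KLF4 with 1 of 2 versions of OCT4. In the combination O(5R)SK the OCT4 version was the one that the labels call 5R, a name they do not explain, and in the combination O(WT)SK it was wild type. The medium of both was that of embryonic stem cells, supplemented with fetal bovine serum and leukemia inhibitory factor. RNA came from days 3, 5 and 7 of each combination and was measured on 6 Affymetrix arrays, 1 for every pairing of combination and day. Both combinations carry delivered factors, and fibroblasts without factors were not analysed here.

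Classical cadherins are transmembrane proteins that bind their own kind on the neighbouring cell and so hold cells together at adherens junctions. Inside the cell, β-catenin binds the cadherin tail, α-catenin links β-catenin to actin, and p120-catenin binds nearer the membrane and keeps the cadherin from being taken up. Fibroblasts typically carry N-cadherin and cadherin-11, epithelial and pluripotent stem cells carry E-cadherin, and a replacement of N-cadherin by E-cadherin is called a cadherin switch. T-cadherin, the product of Cdh13, is an atypical relative: it is held by a lipid anchor and lacks the tail that catenins bind.

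The deposited values were linear intensities, and the tests used log2 of the intensity plus 16. Without replicates the number of arrays limits the precision, and nothing states that the arrays came from separate cultures. A p-value here thus reflects the spread among these 6 arrays alone, and that spread may be technical. Genes were tested where their mean lay above a filter at an intensity of 33.5, which left 12622 genes. All 9 genes passed on their brightest probe set, as did 20 of the 23 probe sets. The highest intensity on the O(5R)SK day 7 array was 34285, against 40353 to 47606 on the other arrays. All 10 fibroblast markers lay above the filter. Intensities of different probe sets are not comparable with each other, so no gene is ranked against another by level.

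The 2 genes that rose over time were Cdh1, which encodes E-cadherin, and Cdh13. Day 7 was set against day 3 over both combinations in 1 limma fit with combination and day as terms, so each day rests on 2 arrays. Of the 9 genes, 2 were higher at an adjusted p under 0.05 and 0 were lower. Among all tested genes 10.2% were called, 6.52% higher and 3.68% lower. The median log2 difference was -0.03 over the 9 genes and 0.03 over all genes, and 3 of the 9 differences were positive. The N-cadherin gene Cdh2, the cadherin-11 gene Cdh11 and the cadherin-6 gene Cdh6 were not called, and each had an estimate within 0.05 of 0.

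Cdh1 read 133, 256 and 665 on days 3, 5 and 7 with O(5R)SK, and 102, 170 and 252 with O(WT)SK. Both day 7 arrays stood above both day 3 arrays, and each step upward was present in both combinations. The difference of day 7 minus day 3 was 1.69 on the log2 scale (SE 0.265), which is 3.22-fold with a 95% interval from 1.98 to 5.22 (limma, adjusted p = 0.0321). By size it ranked 107 among the 12622 genes. In these bulk samples, more cells with Cdh1 and more Cdh1 RNA per cell cannot be told apart. Cdh1 has 1 probe set, 1448261_at, so no second probe set could be set beside it. The call was lost when any 1 of the 4 arrays of day 3 or day 7 was left out, with values of 1.23 to 2.14 and adjusted p-values of 0.087 to 0.146, a setting in which 0 genes of the whole array were called. It was also lost without the filter on low values (adjusted p = 0.106).

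**Figure D1:**
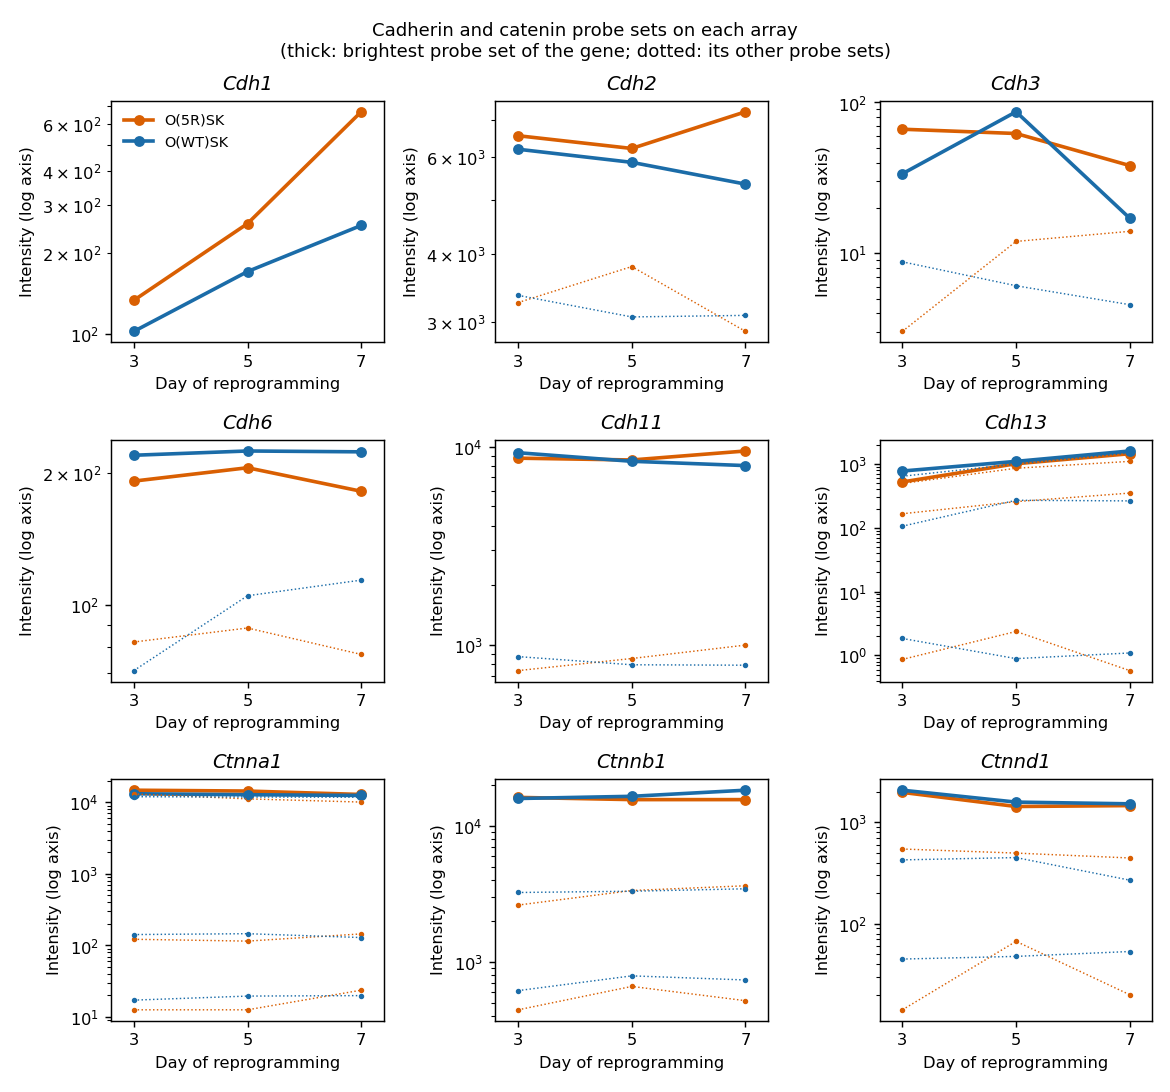
Intensities of the 23 probe sets by day of reprogramming, 1 panel per gene with its own log axis and 1 array per point (orange O(5R)SK, blue O(WT)SK, thick lines the brightest probe set, dotted lines the others). Cdh1 climbed at each step in both combinations and reached 665 with O(5R)SK on day 7, against 252 with O(WT)SK, while the brightest Cdh2 probe set stayed between 5350 and 7240 and that of Cdh11 between 8020 and 9500.

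Cdh2 encodes N-cadherin, the type I cadherin of mesenchymal and neural cells. On its brighter probe set, 1418815_at, the intensities were 6550, 6210 and 7240 on days 3, 5 and 7 with O(5R)SK, and 6190, 5860 and 5350 with O(WT)SK. The highest value came from the O(5R)SK day 7 array and the lowest from the O(WT)SK day 7 array, so the days overlapped. Day 7 minus day 3 was -0.03 (SE 0.133, limma, adjusted p = 0.888), and its 95% interval ran from 0.767-fold to 1.25-fold. The second probe set of Cdh2, 1449244_at, read 3260, 3790 and 2890 with O(5R)SK, and 3360, 3070 and 3090 with O(WT)SK. There the O(5R)SK day 7 array was the lowest of the 6, and the difference was -0.15 (SE 0.146, adjusted p = 0.569).

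Cdh3 encodes P-cadherin, a type I cadherin of placenta and basal epithelium, and its gene is the direct neighbour of Cdh1 in the RefSeq annotation of GRCm38.p6. The brighter one of its probe sets, 1426673_at, gave 66.5, 62.3 and 38.2 on days 3, 5 and 7 with O(5R)SK, and 33.7, 86.8 and 17.1 with O(WT)SK. The O(WT)SK value of day 5 was the highest of the 6 and that of day 7 the lowest, and 1 array lay below the filter intensity. Day 7 minus day 3 was -0.60 (SE 0.314, limma, adjusted p = 0.274), with an interval from 0.373-fold to 1.17-fold. Its other probe set, 1441255_at, stayed at 3.04 to 14 and was not tested. At these low intensities the array gave no called direction for Cdh3.

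Cdh11 encodes cadherin-11, a type II cadherin of mesenchymal cells that is also called OB-cadherin. It read 8740, 8560 and 9500 on days 3, 5 and 7 with O(5R)SK, and 9310, 8430 and 8020 with O(WT)SK on its brighter probe set, 1450757_at. As for Cdh2, the O(5R)SK day 7 array was the highest and the O(WT)SK day 7 array the lowest. Day 7 minus day 3 was -0.05 (SE 0.122, limma, adjusted p = 0.825), with an interval from 0.774-fold to 1.21-fold. The dimmer probe set, 1435120_at, had the other sign at 0.14 (SE 0.169, adjusted p = 0.638), with 744, 856 and 1000 for O(5R)SK and 875, 796 and 792 for O(WT)SK.

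Cdh6, a type II cadherin of kidney and neural crest, read 192, 206 and 182 on days 3, 5 and 7 with O(5R)SK, and 220, 225 and 224 with O(WT)SK on its brighter probe set, 1442257_at. These 6 values were close together, and day 7 minus day 3 was -0.03 (SE 0.101, limma, adjusted p = 0.884, interval 0.817-fold to 1.18-fold). The second probe set of Cdh6, 1450288_at, read 82.3, 88.6 and 77.1 with O(5R)SK, and 70.8, 105 and 114 with O(WT)SK. Its estimate had the opposite sign at 0.25 (SE 0.186, adjusted p = 0.45).

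Cdh13 encodes T-cadherin, which is known to bind adiponectin and LDL. It read 523, 1010 and 1450 on days 3, 5 and 7 with O(5R)SK, and 776, 1100 and 1600 with O(WT)SK on its brightest probe set, 1434115_at. As for Cdh1, both day 7 arrays lay above both day 3 arrays and every step was upward. Day 7 minus day 3 was 1.23 (SE 0.147), or 2.35-fold with an interval from 1.80 to 3.07 (limma, adjusted p = 0.019), and it ranked 293 by size. A second probe set, 1423551_at, read 495, 858 and 1100 with O(5R)SK against 643, 1000 and 1490 with O(WT)SK. It gave a difference of 1.16 in the fit over probe sets (SE 0.115, adjusted p = 0.0256). The third, 1454015_a_at, at 166, 257 and 350 with O(5R)SK and 106, 270 and 264 with O(WT)SK, gave 1.10 and missed the threshold (SE 0.187, adjusted p = 0.0527). The dimmest, 1431824_at, at 0.577 to 2.37, was not tested. The call of Cdh13 was lost without any 1 of the day 3 or day 7 arrays (adjusted p 0.0647 to 0.119) and without the filter (adjusted p = 0.0821).

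None of the catenin genes passed the test over time. Ctnna1, the α-catenin gene, read 14800, 14400 and 12900 on days 3, 5 and 7 with O(5R)SK, and 13200, 12800 and 12500 with O(WT)SK on 1437807_x_at. Both combinations had lower values at each step as deposited, although after quantile normalization the step between days 3 and 5 was 0.01 with O(5R)SK. The difference of day 7 minus day 3 was -0.14 (SE 0.099, limma, adjusted p = 0.404, interval 0.758-fold to 1.09-fold). This brightest probe set carries the suffix x, by which the manufacturer marks probes that may also match other transcripts. A second one, 1448149_at, with values of 10100 to 13100, gave -0.20 (SE 0.133, adjusted p = 0.402), and a dimmer one, 1436631_at, at 115 to 146, gave 0.05 (SE 0.153, adjusted p = 0.878). The dimmest, 1437275_at, at 12.6 to 23.7, was not tested.

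Ctnnb1 encodes β-catenin, which besides its place at the junction carries the Wnt signal to the nucleus. It read 16200, 15600 and 15600 on days 3, 5 and 7 with O(5R)SK, and 15900, 16500 and 18300 with O(WT)SK on its brightest probe set, 1420811_a_at. As deposited, the 2 combinations stood on opposite sides of their day 3 values on day 7, and the days overlapped. Day 7 minus day 3 was 0.08 (SE 0.111, limma, adjusted p = 0.678, interval 0.862-fold to 1.29-fold). Probe set 1450008_a_at read 2610, 3340 and 3620 with O(5R)SK, and 3230, 3300 and 3440 with O(WT)SK, with a difference of 0.28 (SE 0.142, adjusted p = 0.29). Probe set 1430533_a_at read 442, 657 and 516 with O(5R)SK, and 612, 786 and 733 with O(WT)SK, with a difference of 0.24 (SE 0.121, adjusted p = 0.297). On both, each day 5 and day 7 value stood above the day 3 value of its own combination.

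Ctnnd1 encodes p120-catenin. It read 1970, 1430 and 1460 on days 3, 5 and 7 with O(5R)SK, and 2070, 1580 and 1520 with O(WT)SK on its brightest probe set, 1437448_s_at. All arrays of days 5 and 7 lay below both day 3 arrays. The difference of day 7 minus day 3 was -0.43 (SE 0.096), or 0.741-fold with an interval from 0.622 to 0.883, and it missed the threshold (limma, adjusted p = 0.061). A second probe set, 1422450_at, gave a like value of -0.46 (SE 0.167, adjusted p = 0.184), with 545, 497 and 445 for O(5R)SK and 426, 449 and 269 for O(WT)SK. The third, 1445830_at, at 14.2 to 67.1, gave 0.22 (SE 0.382, adjusted p = 0.755). With a pseudocount of 64, a stricter filter or a trended robust prior, Ctnnd1 was called lower, with adjusted p-values of 0.0342, 0.0218 and 0.0048.

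In the fit over probe sets, 3 of the 20 tested were called higher on day 7 than on day 3 and 0 lower. The background of that fit was 4.67% of 23234 probe sets, 3.08% higher and 1.59% lower. The 3 were the Cdh1 probe set (adjusted p = 0.0477) and 2 of Cdh13. By order of the arrays alone, Cdh1 and Cdh13 were the 2 of 9 genes with both day 7 arrays above both day 3 arrays, a pattern of 31.5% of all tested genes. Ctnna1 and Ctnnd1 had both day 7 arrays below both day 3 arrays, against 26.2% of all genes. Cdh1 and Cdh13 were also higher at each step in both combinations, as were 14.9% of all genes, and Ctnna1 was lower at each step, as were 12.9%.

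**Figure D2:**
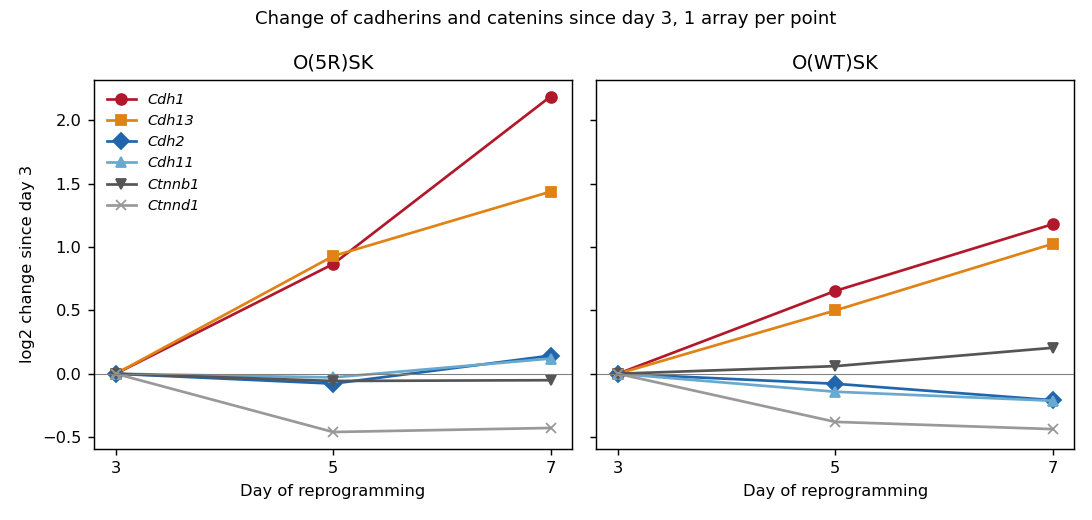
Log2 change since day 3 of 6 of the genes, 1 array per point, with O(5R)SK on the left and O(WT)SK on the right. Cdh1 reached 2.19 with O(5R)SK and 1.18 with O(WT)SK on day 7, Cdh13 reached 1.44 and 1.03, and Cdh2, Cdh11 and Ctnnb1 stayed between -0.21 and 0.20.

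Within each combination a change rests on 1 array per side and has no test. In O(5R)SK cells, Cdh1 was 2.19 higher on day 7 than on day 3 on the log2 scale, and Cdh13 was 1.44 higher. In O(WT)SK cells the same changes were 1.18 and 1.03. So 2 of 9 genes were at least 2-fold higher in each combination, against 4.37% of all genes with O(5R)SK and 3.53% with O(WT)SK. The count rests on the setting, since Cdh1 was at 0.93 with O(WT)SK under a pseudocount of 64. With O(WT)SK Cdh13 was at 0.99 under a common median, and with the mean of its probe sets it was at 0.84 with O(WT)SK and 0.89 with O(5R)SK. None of the 9 was at least 2-fold lower, against 1.59% and 1.89%. Between days 5 and 7, Cdh1 gained 1.32 with O(5R)SK, a step of at least 2-fold that 1.67% of genes made, and 0.53 with O(WT)SK. Cdh3 moved by 2-fold in O(WT)SK cells alone, 1.05 higher on day 5 than on day 3 (1.3% of genes) and at -1.63 for day 7 minus day 5 (0.784% of genes at least 2-fold lower). That pair of moves turns on the single O(WT)SK day 5 array. With the mean of probe sets the 2 values were 0.44 and -0.87, and with a pseudocount of 64 both were under 2-fold as well. Between days 5 and 3 the Ctnnd1 difference was -0.46 with O(5R)SK and -0.38 with O(WT)SK, and between days 7 and 5 it was 0.03 and -0.06.

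A cadherin switch sets E-cadherin against the mesenchymal cadherins, so the change of Cdh1 was set against theirs. Relative to Cdh2, Cdh1 was 2.05 higher on day 7 than on day 3 on the log2 scale with O(5R)SK (4.13-fold), and 1.39 higher with O(WT)SK (2.62-fold). Against Cdh11 the values were 2.07 with O(5R)SK and 1.39 with O(WT)SK, and against Cdh6 they were 2.26 and 1.16. On the brightest probe sets used here, the changes of Cdh2, Cdh11 and Cdh6 themselves were between -0.21 and 0.14 in either combination. The dimmer probe sets gave 0.58 for Cdh6 with O(WT)SK and 0.43 for Cdh11 with O(5R)SK, which would make those ratios smaller. That of Cdh2 gave -0.18 with O(5R)SK and -0.12 with O(WT)SK, against 0.14 and -0.21 on the brightest. It would make the ratio to Cdh2 larger with O(5R)SK and smaller with O(WT)SK. Against Cdh13, which rose too, the change of Cdh1 was 0.75 with O(5R)SK and 0.16 with O(WT)SK. The changes of ratios have no replicate and no test.

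The scaling of the arrays turned the sign of the change in O(5R)SK cells for Cdh2, Cdh11 and Ctnnb1. For Cdh2, day 7 minus day 3 with O(5R)SK was 0.14 as deposited, 0.21 after quantile normalization and -0.02 with all arrays shifted to a common median. For Cdh11 these values were 0.12, 0.26 and -0.04, and for Ctnnb1 they were -0.05, 0.15 and -0.22. The change of Cdh1 with O(5R)SK was 2.19, 2.08 and 2.02 under the same 3 settings. Under the common median the median of all genes moved from 0.03 to -0.07 for day 7 minus day 3.

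**Figure D3:**
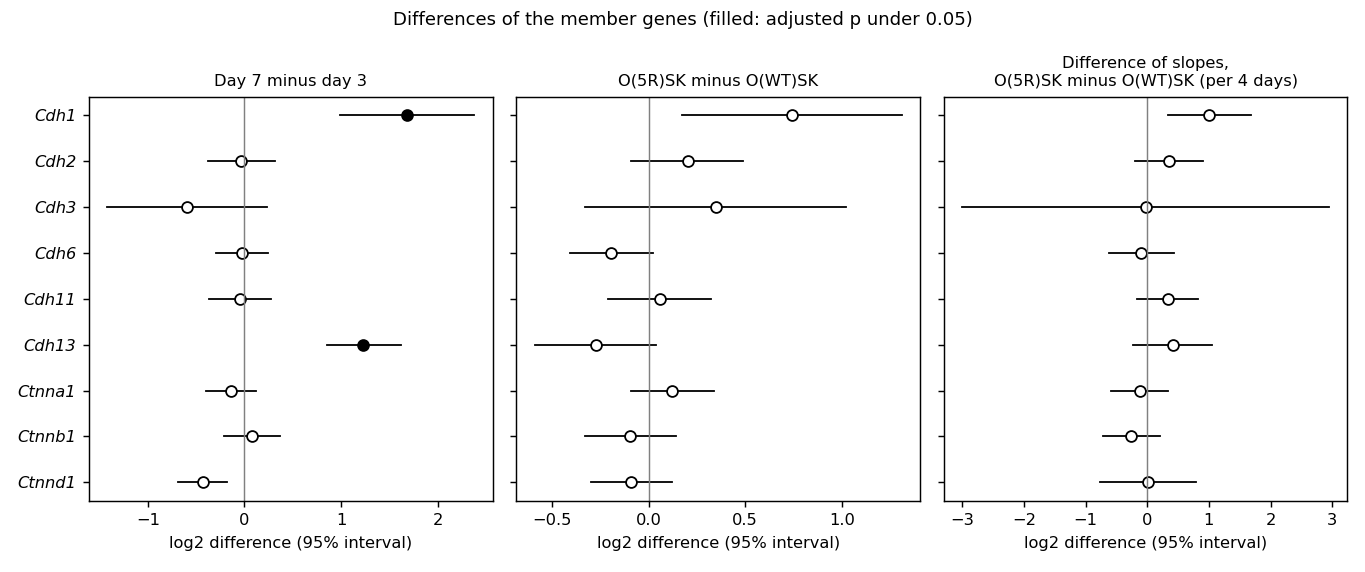
Log2 differences of the 9 genes with 95% intervals from limma, for day 7 minus day 3, O(5R)SK minus O(WT)SK, and the difference of slopes per 4 days, each panel with its own scale. Filled points passed an adjusted p under 0.05, which were Cdh1 at 1.69 and Cdh13 at 1.23 in the first panel and none in the other 2.

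Setting O(5R)SK cells against O(WT)SK cells of the same day asks whether the OCT4 version alters the adhesion genes. Of the 9 genes 0 were called in limma, with a background of 0% of the 12622 genes. At an unadjusted p under 0.05 there were 1180 genes (9.35%) and 1 of the 9, Cdh1. Of the alternative settings, 4 called 2 to 82 genes of the whole array, and 0 of the 9 were among them. Over probe sets, 0 of 20 were called, against a background of 0%.

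Cdh1 was higher with O(5R)SK on each day, by 0.34, 0.55 and 1.34 on days 3, 5 and 7 on the log2 scale. Its difference over the days was 0.74 (SE 0.216), or 1.67-fold with an interval from 1.13 to 2.48, and it missed the threshold (limma, adjusted p = 0.463, higher on 3 of 3 days). Without the day 7 array of either combination the estimate was 0.44. On single days, 0 of 9 genes differed by at least 2-fold on day 3 and day 5, against 1.32% and 1.68% of all genes. On day 7 Cdh1 was the 1 gene of 9 that did, against 2.12% of all genes either way and 1.73% on the higher side.

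On its brighter probe set, Cdh2 was 0.08, 0.08 and 0.44 higher with O(5R)SK on days 3, 5 and 7. This gave a difference of 0.20 (SE 0.109, limma, adjusted p = 0.63, interval 0.943-fold to 1.40-fold). The second probe set of Cdh2 gave -0.04, 0.30 and -0.10 on these days, and 0.05 over them (SE 0.119, limma, adjusted p = 0.894). Cdh13 was lower with O(5R)SK on each day, at -0.55, -0.12 and -0.14, which gave -0.27 (SE 0.12, adjusted p = 0.584, interval 0.665-fold to 1.03-fold). Its second probe set shared that sign at -0.34 (adjusted p = 0.5), while the third had the other sign at 0.30 (adjusted p = 0.623). Cdh6 was lower with O(5R)SK on each day as well on its brighter probe set, at -0.19 over the days (SE 0.082, adjusted p = 0.565, interval 0.752-fold to 1.02-fold). Its second probe set was negative over the days too, at -0.17 (limma, adjusted p = 0.748), but gave 0.18, -0.21 and -0.48 on days 3, 5 and 7. The remaining estimates were 0.35 for Cdh3, 0.12 for Ctnna1, 0.06 for Cdh11, -0.09 for Ctnnd1 and -0.10 for Ctnnb1, with adjusted p-values of 0.672 to 0.856. On their brightest probe sets, 6 of the 9 genes kept 1 sign on all 3 days, a pattern of 33.8% of all genes. That count depends on the scaling, since Ctnna1, among the 6, was at 0.04 on day 7 as deposited and at -0.08 with a common median. It depends on the probe set too, since the second ones of Cdh2 and Cdh6 changed sign between days. So did 1448149_at of Ctnna1, at 0.12, -0.09 and -0.23, and 1454015_a_at of Cdh13, at 0.58, -0.07 and 0.39. For Ctnnd1, 1422450_at kept the opposite sign, at 0.34, 0.14 and 0.69. Probe set 1423551_at of Cdh13 kept the sign of the brightest, at -0.37, -0.22 and -0.43. Among the dimmer probe sets, one of Ctnnb1 gave -0.40 (adjusted p = 0.489) and one of Ctnnd1 gave 0.39 (adjusted p = 0.534), while the brightest probe sets of these genes lay near 0.

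Whether the change over days differed between the combinations was tested by a difference of slopes, given per 4 days, the span of the series. For Cdh1 the slope was steeper with O(5R)SK by 1.01 on the log2 scale (SE 0.25, interval 0.33 to 1.69), and this missed the threshold (limma, adjusted p = 0.647). With 1 array left out it ran from 0.55, without the O(5R)SK day 7 array, to 1.47, without the O(5R)SK day 3 array. Of the 9 genes 0 were called, against a background of 0%, while 949 genes (7.52%) and 1 of the 9 had an unadjusted p under 0.05. The remaining slopes ran from -0.26 for Ctnnb1 to 0.41 for Cdh13. The estimate for Cdh3 was -0.02 with an SE of 1.09. Over probe sets 0 of 20 were called, again with a background of 0%.

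By their pattern over the 6 arrays, the tested genes most like Cdh1 were Btg1, Zfp141, Phf20l1, Fam76a and Gprin3, with Pearson r of log2 values from 0.995 to 0.998. Zfp141, for example, read 92, 170 and 407 on days 3, 5 and 7 with O(5R)SK, and 80, 116 and 174 with O(WT)SK. Most like Cdh2 were Tmtc1, Cdc27, Zkscan8, Ezr and C1d, with r from 0.984 to 0.998. Ezr encodes ezrin, which links membrane proteins to actin, and read 974, 916 and 1080 with O(5R)SK, and 945, 835 and 774 with O(WT)SK. Most like Cdh11 were Nek2, Caap1, Ankhd1, Far1 and Fbxl5, with r from 0.982 to 0.989. Cdh2 and Cdh11 themselves had r = 0.85. These correlations rest on 6 arrays that share their scaling, and the genes were picked as the closest of 12622, so they are a description only.

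**Figure D4:**
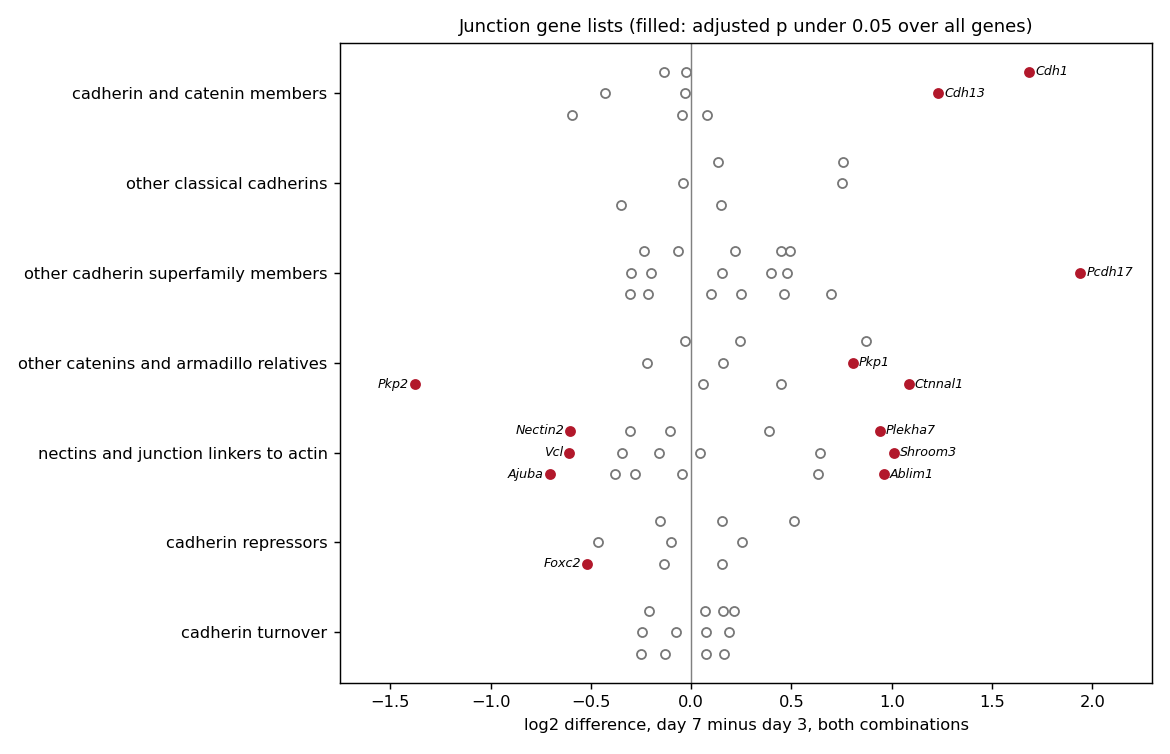
Log2 differences of day 7 minus day 3 over both combinations for the 9 genes and 6 lists of related genes, 1 point per tested gene, filled and named where the adjusted p over all genes was under 0.05. Cdh1 at 1.69 and Pcdh17 at 1.94 were the furthest to the right, and Pkp2 at -1.38 the furthest to the left.

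The background for the lists that follow was 6.52% of all tested genes called higher on day 7 than on day 3, and 3.68% lower. Of 13 other classical cadherins, 11 were on the array and 6 were tested, and 0 were called on day 7 against day 3. Their median was 0.14. The largest values belonged to Cdh15, the M-cadherin of muscle, at 0.76 (SE 0.306, limma, adjusted p = 0.183), and to Cdh22 at 0.75 (SE 0.388, adjusted p = 0.266). Cdh15 stayed at intensities of 11.1 to 76.7 and Cdh22 at 6.91 to 59.5. With 1 array left out, Cdh15 ran from 0.21 (without O(WT)SK day 3) to 1.30 (without O(5R)SK day 3). Cdh22 ran from 0.054 (without O(5R)SK day 3) to 1.45 (without O(WT)SK day 3). Among 29 other members of the cadherin superfamily, 17 were tested with a median of 0.22, and 1 rose. This was Pcdh17, a protocadherin of the nervous system. It read 576, 1410 and 2570 on days 3, 5 and 7 with O(5R)SK, and 299, 697 and 1050 with O(WT)SK. Its values were higher at each step in both combinations, with a difference of 1.94 (SE 0.13, 3.84-fold, adjusted p = 0.0083).

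Among 12 other catenins and armadillo proteins, 10 were tested, with a median of 0.20. Of these, 2 rose and 1 fell, against 6.52% and 3.68% of all genes. Ctnnal1, which encodes α-catulin, a relative of α-catenin, rose by 1.08 (SE 0.189, limma, adjusted p = 0.0388), with 197, 272 and 559 for O(5R)SK and 193, 212 and 332 for O(WT)SK. Its call was lost with a pseudocount of 4 (adjusted p = 0.0502), which left 1 gene of the list higher. The desmosomal plakophilin gene Pkp1 rose by 0.81 (SE 0.119, adjusted p = 0.0284). Pkp2, also a plakophilin of desmosomes, fell by 1.38 (SE 0.12, adjusted p = 0.0121), and it read 2620, 1400 and 1080 with O(5R)SK, and 2770, 1600 and 983 with O(WT)SK. Members of this family moved in both directions over the same days.

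Among 18 nectins and proteins that link junctions to actin, 17 were tested, with a median of -0.11. Of these, 3 rose and 3 fell, against 6.52% and 3.68% of all genes. Shroom3, which drives apical constriction in epithelia, rose by 1.01 (SE 0.102, limma, adjusted p = 0.0147). The actin-binding gene Ablim1 rose by 0.96 (adjusted p = 0.0151), and Plekha7, a partner of p120-catenin at the junction, by 0.94 (adjusted p = 0.0432). With the mean of each gene's probe sets in place of the brightest, Ablim1 gave 0.28 and Plekha7 gave 0.48, and both calls were lost. The call of Plekha7 was lost with a pseudocount of 4 too (adjusted p = 0.0534), and that of Nectin2 with the mean of probe sets (adjusted p = 0.0522). The nectin gene Nectin2 fell by 0.60 (adjusted p = 0.0314), the vinculin gene Vcl by 0.61 (adjusted p = 0.0321) and the LIM protein gene Ajuba by 0.71 (adjusted p = 0.0279). Vinculin and Ajuba both associate with α-catenin, and vinculin also sits at focal adhesions. Vcl read 22100, 16700 and 14100 with O(5R)SK, and 22200, 17600 and 15000 with O(WT)SK, with all day 7 values below all day 3 values. Without either day 5 array, Vcl and Nectin2 missed the threshold too, with adjusted p-values of 0.0544 to 0.0564.

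Transcriptional repressors of cadherins, chiefly of Cdh1, were listed with 11 genes, of which 9 were tested, with a median of -0.10. Of these, 0 rose and 1 fell, against 6.52% and 3.68% of all genes. The one that fell was Foxc2, a forkhead factor of mesenchymal cells, by 0.52 (SE 0.096, limma, adjusted p = 0.0439). It read 485, 425 and 344 on days 3, 5 and 7 with O(5R)SK, and 508, 414 and 340 with O(WT)SK. This call was lost with a pseudocount of 4 (adjusted p = 0.051), with the mean of probe sets (adjusted p = 0.0523), and without any 1 of the 6 arrays. Snai1, the Snail repressor of Cdh1, read 145, 101 and 97.8 with O(5R)SK, and 151, 137 and 107 with O(WT)SK. Its difference was -0.47 and missed the threshold (SE 0.125, adjusted p = 0.0883). With the stricter filter Snai1 was called lower (adjusted p = 0.0332), and 2 of the list were lower and 1 higher. The mean of probe sets and the trended robust prior also gave 1 of the list higher. Zeb1 gave 0.25 (adjusted p = 0.348), with 0.013 when the O(WT)SK day 7 array was left out and 0.49 when the O(5R)SK day 7 array was. Zeb2 gave -0.15 (adjusted p = 0.529) and Snai2 gave -0.14 (adjusted p = 0.442). Tcf4 had the largest positive difference of the list, 0.51 (SE 0.148, limma, adjusted p = 0.104). It read 1290, 1820 and 2180 with O(5R)SK, and 1410, 1540 and 1710 with O(WT)SK. In the whole list, 4 differences were positive and 5 negative. Of 15 genes that act on cadherin turnover, 12 were tested and 0 were called, with a median of 0.07. The largest values there were -0.25 for Arf6, a GTPase of endocytosis (adjusted p = 0.164), and -0.25 for the membrane protease gene Mmp14 (adjusted p = 0.176). Between O(5R)SK and O(WT)SK, 0 genes were called in any of these 6 lists.

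Marker genes of other cells that a fibroblast culture could hold were read beside these results. Their background too was 6.52% of all tested genes called higher on day 7 than on day 3, and 3.68% lower. Of the epithelial markers 4 of 8 lay above the filter, and the summed intensity of all 8 was 1333 to 1362 on day 7, against 2097 to 2119 on day 3. Krt19 was the largest single part of that sum on every array, and it fell by 1.38 (limma, adjusted p = 0.0143), while Krt8 rose by 1.18 (adjusted p = 0.0391). With a pseudocount of 4 the call of Krt8 was lost (adjusted p = 0.0502), which left 0 epithelial markers higher. Epcam, which marks epithelial and pluripotent cells, was at 0.63 (adjusted p = 0.176), and Esrp1 stayed at 1.05 to 33.4. Macrophage markers summed to 2818 to 3275 on day 7, against 7766 to 8294 on day 3. Lyz2 was the largest single part of that sum, at 1870 to 2170 on day 7, against 5820 to 6290 on day 3. Of the macrophage markers 5 of 6 fell, among them Lyz2 by 1.58 (limma, adjusted p = 0.00777). The count of macrophage markers that fell was 2 with a pseudocount of 4, and 3 with quantile normalization or the mean of probe sets. Of the fibroblast markers 2 of 10 fell, Thy1 by 0.71 (adjusted p = 0.0239) and Postn by 0.66 (adjusted p = 0.0339). The sum of the fibroblast markers went from 118326 on day 3 to 100639 on day 7 with O(5R)SK. With O(WT)SK it went the other way, from 126016 to 136015. Vim, the largest single part of that sum, went from 39400 to 31400 with O(5R)SK and from 40300 to 44600 with O(WT)SK. Endothelial markers, with 3 of 6 above the filter and Tie1 at 0.792 to 2.73, summed to 641 to 870 on day 7, against 596 to 680 on day 3. Muscle markers, with 2 of 5 above the filter, summed to 1319 to 1503 on day 7, against 1622 to 1797 on day 3. Des was the largest single part of the muscle sum, at 1160 to 1380 on day 7, against 1500 to 1760 on day 3. Schwann cell and glial markers had 3 of 3 on the array above the filter. Their sum went from 139 on day 3 to 104 on day 7 with O(5R)SK, and from 126 to 140 with O(WT)SK. None of the endothelial, muscle or glial markers was called. The part of any of these cells in the cadherin and catenin values was not tested.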

How the data were processed

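The authors deposited 1 linear intensity per probe set and array, computed with affy, per the submitters' processing notes. Its version is not given in the sources used here, nor is the summary method or background correction. Every array had a 2% trimmed mean of 500 and its own quantiles, which shows a scaling without quantile normalization. Per the labels' protocols, the RNA was extracted with Trizol and labelled with biotin. Groups and days came from the sample labels.

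The array has 45101 probe sets, of which 34958 name 1 gene in the platform annotation, 932 several and 9211 none. Genes were named from the first kind alone, and 34754 of those were found among RefSeq genes of GRCm38.p6, with 0 symbols changed. Coordinates are not printed, since the build of the array is unnamed. Control probe sets (64) stayed out. Each gene was represented by its brightest probe set (9010 genes had several). Values were log2(intensity + 16), on which folds understate changes of dim genes. The filter was the 40th percentile of probe set means (log2 5.63).

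Tests used limma 3.58.1 (lmFit, eBayes) in R 4.3.3 (package data.table, version 1.17.8). P-values had Benjamini-Hochberg adjustment over all 12622 genes or 23234 probe sets, with a threshold of 0.05. With 4 coefficients for combination and day, 2 residual degrees of freedom remained, and the eBayes prior contributed 2.6 more. Its residual also holds any change of the combination difference with day. The fits were tested on simulated data. Log2 values of pairs of arrays correlated with r of 0.97 to 0.991 across genes. Plots were made in Python 3.11.15 (pandas 2.3.3, matplotlib 3.10.9).

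The 9 genes and the lists of related genes were chosen with earlier results of these data known, so the lists are described by counts and medians, with no test of a list. Named genes were all 9 members, the called members of each list (at most 3 each way) or its 2 largest values where none was called, the 5 genes most correlated with Cdh1, Cdh2 and Cdh11, and at most 3 genes per marker list. Snai1, Snai2, Zeb1, Zeb2, Tcf4, Epcam, Esrp1, Tie1, Vim, Des and the genes under other observations were added after their values were seen. Epcam, Twist2, Cdh5, Cdh15 and Cdh19 each stand in 2 lists. The alternatives were other pseudocounts (4 and 64), no filter or one at the 60th percentile, quantile normalization, a common median, the mean of probe sets, a trended robust prior, day as a number, each probe set on its own and each array left out.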

Additional observations from a re-analysis of the deposited data

How the results depend on the processing

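The direction of Cdh1 and Cdh13 on day 7 against day 3 was kept under all alternatives run, with log2 values of 1.23 to 2.14 for Cdh1 and 0.86 to 1.44 for Cdh13. Their calls were lost without the filter and without any day 3 or day 7 array, settings in which 0 genes of the array were called, so every call among the related genes was lost there too. The count of called genes among the 9, 2 in all, was 0 without the filter and 0 to 2 with 1 array left out. At most it was 3, since Ctnnd1 was called lower with a pseudocount of 64, the stricter filter and the trended prior. The count of called member probe sets, 3, was 0 without the filter, 5 with the stricter filter, 5 with the trended prior and 0 to 3 with 1 array left out. Over all genes, the 1287 calls became 1971 with a pseudocount of 64, 2202 with the stricter filter, 2846 with the trended prior, 0 without the filter and 0 to 1198 with 1 array left out. Their split of 823 higher and 464 lower was 578 and 593 with a common median, and 648 and 514 with quantile normalization. Between O(5R)SK and O(WT)SK, 0 calls over all genes became 2 with a pseudocount of 64, 27 with the stricter filter, 82 with the trended prior and 3 with day as a number. The 0 slope calls became 2 with the trended prior. The cause of these shifts was not tested, except that fewer genes enter under the stricter filter and fewer arrays when one is left out.

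Signs turned only for uncalled values, and their cause was not tested. For day 7 minus day 3, quantile normalization gave 0.004 for Cdh2 and 0.037 for Cdh11, the common median gave -0.024 for Ctnnb1, and the mean of probe sets gave 0.11 for Cdh6 and 0.048 for Cdh11. Single probe sets gave 0.25 for Cdh6, 0.14 for Cdh11, 0.045 for Ctnna1 and 0.22 for Ctnnd1. With 1 array left out, Cdh2 ran from -0.21 to 0.14, Cdh6 from -0.091 to 0.04, Cdh11 from -0.19 to 0.092, Ctnnb1 from -0.021 to 0.18 and Zeb2 from -0.36 to 0.056. For O(5R)SK minus O(WT)SK, single probe sets gave 0.30 for Cdh13, -0.068 and -0.11 for Ctnna1 and 0.39 for Ctnnd1, the mean of probe sets gave -0.047 for Ctnna1 and 0.046 for Zeb1, and Cdh11 ran from -0.035 to 0.13 with 1 array left out. For slopes, single probe sets gave -0.055 for Cdh2, -0.06 and -0.19 for Cdh13, 0.35 for Ctnna1 and 0.38 for Ctnnb1, and the mean gave 0.06 for Ctnna1 and 0.029 for Ctnnb1. A pseudocount of 4 gave 0.093 for Cdh3, quantile normalization 0 and the common median -0.12 for Ctnnd1. With 1 array left out, slopes ran from -2.70 to 2.66 for Cdh3, -0.35 to 0.16 for Cdh6, -0.009 to 0.83 for Cdh13 and -0.48 to 0.50 for Ctnnd1.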

Other observations

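Between O(5R)SK and O(WT)SK, related cadherins outside the 9 genes had differences of both signs, and none was called. Those named here were chosen after their values were seen. Pcdh17 was higher with O(5R)SK on each day, with 576, 1410 and 2570 on days 3, 5 and 7 against 299, 697 and 1050 with O(WT)SK, a log2 difference of 1.06 (SE 0.106, limma, adjusted p = 0.232). Over its alternatives the adjusted p ran from 0.000879 to 0.573, and 2 alternatives called it. Cdh10, a type II cadherin of the nervous system, read 903, 919 and 1090 with O(5R)SK against 583, 561 and 594 with O(WT)SK, so every O(5R)SK array stood above every O(WT)SK array. Its difference was 0.73 (SE 0.09, limma, adjusted p = 0.262, and 0.00469 to 0.573 over the alternatives, 2 of which called it). Pcdh10 read 317, 501 and 497 with O(5R)SK against 221, 271 and 270 with O(WT)SK, a difference of 0.73 (SE 0.109, limma, adjusted p = 0.284). Cdh20 and Cdh15 were at 1.01 (adjusted p = 0.49) and 0.85 (adjusted p = 0.474), on dim probe sets with values of 7.38 to 75.7 and 11.1 to 76.7. Of the 6 tested classical cadherins outside the 9 genes, 4 were positive and 2 negative in this comparison, with a median of 0.41 against -0.01 over all genes. Of the 17 tested superfamily members, 8 were positive and 9 negative, with a median of -0.02. Negative values included -0.72 for Cdh22, -0.56 for Clstn3, -0.485 for Fat3 and -0.375 for Clstn2. None of these was called (limma, adjusted p 0.335 to 0.588).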
